A study of Mus musculus with 31 samples.

Results

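The change in hippocampal gene expression across middle adulthood, from 9 to 14.5 months of age, was examined in Glud1 transgenic (Tg) and wild type (wt) mice. Of the 31 arrays of the series, 12 belong to it, which are the arrays of the 6 mice labelled 14.5 months and of the 6 mice labelled 9 months. At each age 3 mice were Tg and 3 were wt, all were male mice of the C57BL/6 strain, and each array held total RNA from the hippocampus of 1 mouse. The Tg mice carry an inserted open reading frame of Glud1, the gene for the mitochondrial enzyme glutamate dehydrogenase, and overexpress the enzyme in neurons of the central nervous system. The wt mice share their C57BL/6 background, and the labels name no treatment at either age. The arrays (Affymetrix, whole mouse genome) carry 45037 mouse probe sets, each a group of short probes for 1 transcript. Values are log2 of the deposited signal after quantile normalization, a scaling that gives every array the same distribution of signals, so 1 unit is a doubling of signal. Testing was limited to probe sets above the array median on 3 or more of the 12 arrays, which left 24828, and a gene is shown by its tested probe set with the highest mean, which gave 12093 genes. Age changes are given as the 14.5 month mean minus the 9 month mean, adjusted for genotype in limma, with their standard error, and were called at an adjusted p under 0.05 over all probe sets tested.

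The hippocampus is built around a relay of excitatory neurons, from the granule cells of the dentate gyrus to the pyramidal cells of CA3 and CA1, which signal with glutamate and are held in check by interneurons that release GABA. It is needed for forming new memories, and its synapses are continually altered by activity. Neurons depend on mitochondria for the energy of signalling and on astrocytes, which remove glutamate from the synapse, while microglia are the resident immune cells. Markers of the hippocampal fields were present at both ages. The genes Prox1 and C1ql2 (dentate gyrus), Wfs1 and Fibcd1 (CA1), Pcp4 and Amigo2 (CA2), Bok and Grik4 (CA3), Neurod6 and Zbtb20 lay between the percentiles 61.8 and 98.3 of mouse probe sets at 9 months and between 66.0 and 97.9 at 14.5 months. In RNA from whole tissue, fewer cells of a type and less RNA per cell cannot be told apart.

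The 9 month arrays differed from the 14.5 month arrays in control measures, most of which do not read mouse messenger RNA (the 3'/5' ratios and the array median do). Of 13 control measures, 11 did not overlap between the ages, each with an exact permutation p of 0.002165 (two-sided, adjusted p = 0.002559 over the 13 measures), the smallest that 924 arrangements of 6 arrays against 6 allow. The dap transcript, which is spiked into the RNA before labelling, lay between 9.78 and 10.29 on the log2 scale as deposited at 9 months and between 12.20 and 12.48 at 14.5 months. Probe sets for 18S ribosomal RNA lay between 8.99 and 12.28 at 9 months and between 5.22 and 6.10 at 14.5 months, a difference of -5.01. The cre transcript, which is added at hybridization, fell by 0.93, and the log2 ratio of 3' to 5' signal of beta-actin ran from 0.71 to 0.96 at 9 months and from 0.32 to 0.40 at 14.5 months. Pairs of arrays within 9 months correlated at 0.936 to 0.963, within 14.5 months at 0.981 to 0.989 and between the ages at 0.893 to 0.938. The median standard deviation of a probe set within a group was 0.198 (Tg) and 0.204 (wt) at 9 months, against 0.106 in each genotype at 14.5 months. Age and the way the arrays of that age were prepared and hybridized cannot be told apart in these 12 arrays, and every age change below holds both. When the 18S rRNA signal entered the model as a covariate, 279 probe sets rose and 347 fell, and none was called when the hybridization controls entered it. Neither covariate overlaps between the ages, so such a fit has little left with which to estimate age.

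**Figure D1:**
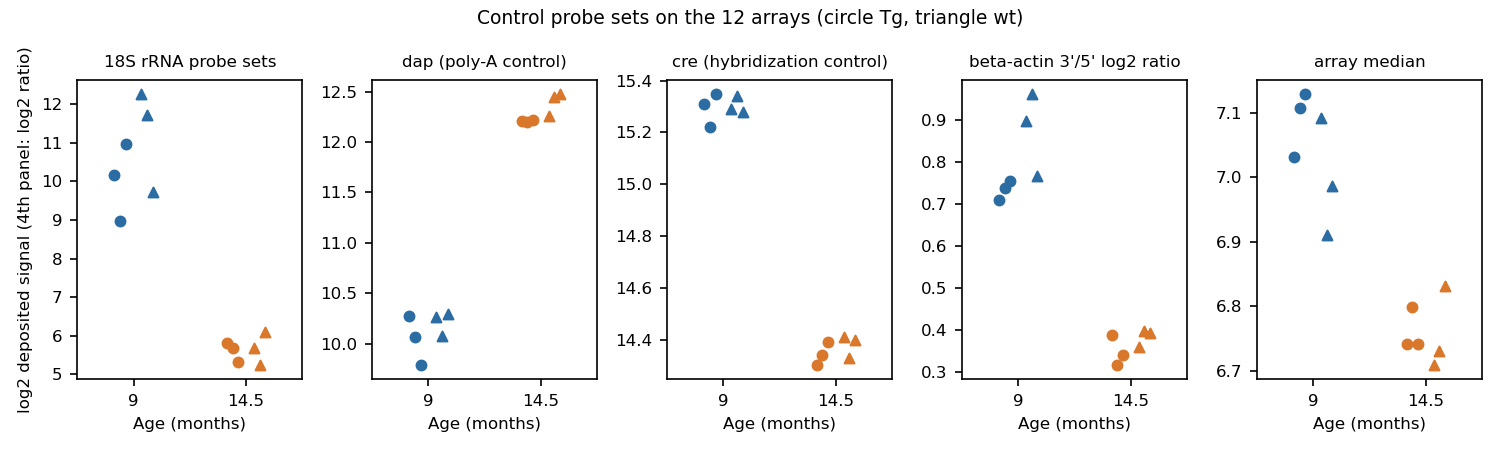
Control measures on each of the 12 arrays, with age on the x axis and log2 deposited signal on the y axis (log2 ratio in the fourth panel), circles for Tg and triangles for wt. In all 5 panels the 6 arrays at 9 months lie apart from the 6 at 14.5 months, most widely for 18S rRNA (8.99 to 12.28 against 5.22 to 6.10).

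Many probe sets differed between the ages at this threshold. Of the 24828 probe sets, 6620 (26.7%) rose and 6009 (24.2%) fell, 50.9% in all, and over genes 2938 (24.3%) rose and 2714 (22.4%) fell, 46.7% in all. The changes were mostly small, with a median size of 0.24 over genes. A change of at least 2-fold was seen in 272 genes that rose and in 94 that fell. In 1433 genes (11.8%) all 6 arrays at 14.5 months lay above all 6 at 9 months, and in 1566 (12.9%) all 6 lay below. These shares are the background against which the genes of every list are to be read.

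The largest fall was in Malat1. Malat1 is a long noncoding RNA held in nuclear speckles, the bodies that store splicing factors. Malat1 signal ran from 13.88 to 14.85 at 9 months, with a median of 14.62, and from 10.66 to 11.93 at 14.5 months, with a median of 11.09. All 6 arrays at 14.5 months lay below all 6 at 9 months, and the fall was 3.26 on the log2 scale (change -3.26 ± 0.25, SE, adjusted p = 2.93e-06). The other 6 tested probe sets for Malat1 changed by -1.40 to -2.48, so all 7 fell, by different amounts. Luc7l2, a component of the U1 particle that marks the start of an intron, ran from 11.99 to 12.54 at 9 months (median 12.45) and from 10.32 to 10.69 at 14.5 months (median 10.50), without overlap (change -1.85 ± 0.07, adjusted p = 2.24e-10). Ttc14, a gene of poorly known function, ran from 11.49 to 12.14 at 9 months (median 12.03) and from 9.88 to 10.21 at 14.5 months (median 9.99), also without overlap (change -1.96 ± 0.09, adjusted p = 6.62e-10).

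The 15 genes with the largest falls among those without overlap were, after Malat1, 6330415B21Rik (-2.94), Mir1931 (-2.17), Gm4432 (-2.09), Gdap10 (-2.03), Gm31445 (-2.01), 2310067E19Rik (-2.0), St6galnac3 (-1.96), Ttc14, Luc7l2, Kcnq1ot1 (-1.85), 1500004A13Rik (-1.82), Slc25a27 (-1.82), Zbed6 (-1.74) and Mir138-2 (-1.73). Kcnq1ot1 is a noncoding RNA that silences neighbouring imprinted genes, St6galnac3 adds sialic acid to glycolipids, and Slc25a27 is a carrier of the inner mitochondrial membrane. Mir1931 and Mir138-2 name the genes of microRNA precursors, and these probe sets do not measure the mature microRNA. For 1500004A13Rik the other 2 probe sets did not pass the test, with changes of 0.31 and 0.77.

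The 15 largest rises by the same rule were Gpr27 (2.25), Tmem143 (2.08), Cacng7 (1.93), Notch4 (1.88), Tmc8 (1.88), Ap2b1 (1.77), Arsg (1.75), AI987944 (1.65), Pygo1 (1.56), P4htm (1.55), Prrt1 (1.5), Foxj1 (1.5), Zfp995 (1.49), Slc26a2 (1.48) and Nfkbil1 (1.46). Prrt1, also called SynDIG4, is a protein that associates with AMPA receptors at synapses, Cacng7 is an auxiliary subunit of these receptors, and Ap2b1 is a part of the adaptor that recruits clathrin during endocytosis. P4htm, a hydroxylase of the endoplasmic reticulum, ran from 10.12 to 10.91 at 9 months (median 10.54) and from 11.98 to 12.15 at 14.5 months (median 12.08), a rise of 1.55 ± 0.10 (adjusted p = 2.09e-08). Prrt1 ran from 10.50 to 11.11 at 9 months (mean 10.94) and from 12.29 to 12.70 at 14.5 months (mean 12.44), a rise of 1.5 ± 0.09 (adjusted p = 6.81e-09). Neither gene overlapped between the ages. Other rises began from low and scattered levels, as in Gpr27, a receptor with no settled ligand, which ran from 4.71 to 7.99 at 9 months (median 6.47) and from 8.42 to 8.71 at 14.5 months (median 8.61; change 2.25 ± 0.54, adjusted p = 0.00456). The 9 month arrays of Gpr27 were the scattered ones, with an SD of 1.46 against 0.131 at 14.5 months. Notch4 lay below the array median of 6.84 on every array at 9 months (5.418 to 6.575). Tmem143, Tmc8, AI987944, Pygo1 and Nfkbil1 lay below it on most of these arrays. These genes passed the level filter through the 14.5 month arrays, so their changes are measured from dim 9 month signals.

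**Figure D2:**
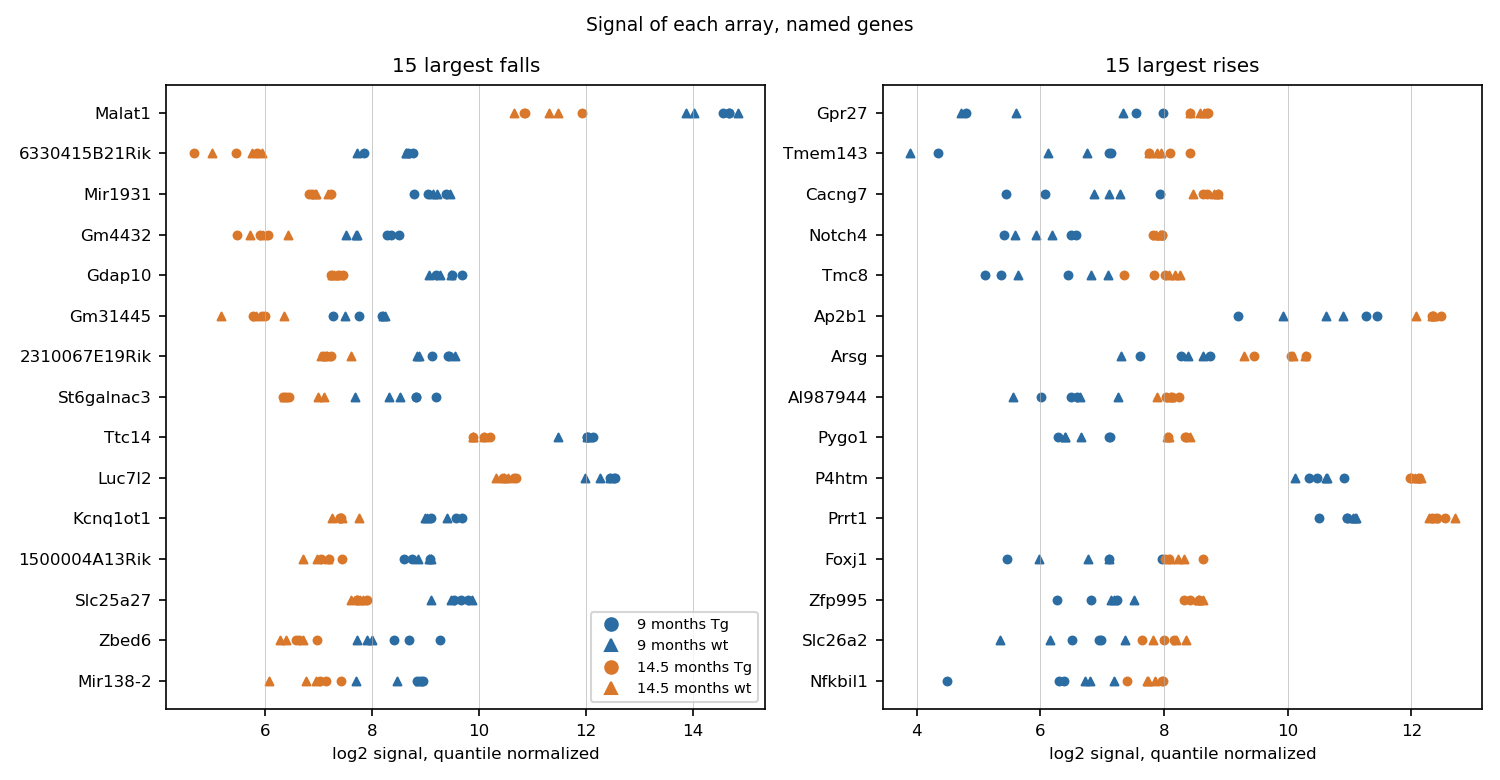
Log2 signal (x axis) of each of the 12 arrays for the 15 genes with the largest falls (left) and rises (right), blue for 9 months and orange for 14.5 months, circles for Tg and triangles for wt. The ages do not overlap, which the rule for naming required, and Malat1 shows the widest gap, from 14.62 to 11.09 at the medians, while the 9 month values of Gpr27 and Tmem143 are scattered.

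Other long noncoding RNAs were looked at after their values had been seen. Meg3, an imprinted noncoding RNA of neurons, had all 11 of its tested probe sets lower at 14.5 months, by 0.56 to 2.30 on the log2 scale, and its brightest fell from a median of 13.62 to 12.34 without overlap (change -1.36 ± 0.10, adjusted p = 1.34e-07). Miat, an RNA that binds splicing factors, changed by -1.20 ± 0.08 (adjusted p = 3.61e-08), and Neat1, the scaffold of nuclear paraspeckles, by -0.94 ± 0.08 (adjusted p = 2.96e-07), both without overlap. Norad, an abundant noncoding RNA of the cytoplasm, went the other way after quantile normalization (0.17 ± 0.03, adjusted p = 4.82e-04), but without it the change was -0.61. Of all 268 genes annotated as long noncoding RNA, 36 (13.4%) rose and 65 (24.3%) fell, beside 24.6% and 22.3% of protein-coding genes.

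Probe sets that the annotation assigns to no gene leaned strongly to a fall. Of 2514 such probe sets 14.0% rose and 49.4% fell, with a median change of -0.37, while of 21771 probe sets assigned to 1 gene 28.1% rose and 21.1% fell, with a median of 0.08. The unassigned probe sets were dimmer, with a mean log2 signal of 7.96 against 9.11 for those assigned to any gene. Their median change as deposited, without quantile normalization, was -0.51. What these probe sets match in the genome was not analysed here.

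Probe sets of the same gene often disagreed. Of 5779 genes with at least 2 tested probe sets, 4594 had at least 1 that was called, and in 993 of them 1 probe set rose and another fell, which is 40.9% of the genes with at least 2 called. Kcnq5, a potassium channel subunit, and Tenm2, an adhesion protein of synapses, both chosen after their values were seen, show how far this can go. The brightest probe set for Kcnq5 (median 10.59 at 9 months and 10.43 at 14.5 months) changed by -0.15 ± 0.06 and did not pass the test (adjusted p = 0.0506). Another of its probe sets fell from a mean of 9.46 to 6.11 (change -3.35 ± 0.16, adjusted p = 7.45e-10). In Tenm2 the brightest probe set did not pass (-0.11 ± 0.07, adjusted p = 0.223) while another changed by -3.13 ± 0.08 (adjusted p = 4.25e-12).

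Splicing factors fell as a group more often than genes at large. Splicing removes introns from RNA, and its factors include the SR proteins, the particles of the spliceosome and regulators such as the RNA binding proteins Rbfox and Celf. Of 51 measured genes of the list, which holds Malat1 and Neat1, 30 fell and 10 rose, against 22.4% and 24.3% of all genes, and the median change was -0.20 against 0.04. In 22 of them the 6 arrays at 14.5 months all lay below the 6 at 9 months, and in 7 they all lay above. Over all genes 12.9% lay below in this way and 11.8% above. Srrm2, a large scaffold protein of nuclear speckles, ran from 12.85 to 13.14 at 9 months (mean 12.98) and from 11.90 to 12.03 at 14.5 months (mean 11.99), a change of -0.99 ± 0.05 (adjusted p = 1.6e-09), while 1 of its 2 other probe sets rose (0.87). Sf3b1, the core of the particle that recognises the branch point of introns, changed by -1.05 ± 0.07 (adjusted p = 1.04e-08), and the SR protein Srsf11 by -0.81 ± 0.04 (adjusted p = 2.03e-09), both without overlap. Among the 10 that rose, Hnrnpl, which binds CA repeats in RNA, had the largest change (1.23 ± 0.09, adjusted p = 6.59e-08) and was chosen after its value was seen. Without quantile normalization the counts were 30 and 9. With the 18S rRNA covariate, 7 of the 51 fell and none rose, and over all genes 108 fell and 139 rose. Under it 0 of 63 genes of oxidative phosphorylation fell, 2 of 42 for cytosolic and 0 of 73 for mitochondrial ribosomal proteins. In the proteasome 1 of 38 fell, and 1 of 23 rose in glutamate metabolism and 1 of 26 in the interferon list. This covariate was chosen after seeing the data and does not overlap between the ages. These counts therefore do not separate age from array preparation.

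In the list of DNA methylation and chromatin genes 15 of 36 fell and 6 rose, with a median of -0.10, and without quantile normalization 11 fell and 8 rose. Mbd4, a glycosylase that repairs mismatches at methylated sites, fell from a median of 8.63 to 7.69 (change -1.02 ± 0.12, adjusted p = 5.26e-06), and Dnmt3a, which adds methyl groups to DNA, from 9.49 to 8.79 (change -0.69 ± 0.09, adjusted p = 9.86e-06). Of the 4 other probe sets of Dnmt3a, 1 rose (1.1), 1 fell and 2 did not pass. Smarca2, an ATPase that moves nucleosomes, rose from a median of 10.80 to 11.52 (change 0.73 ± 0.08, adjusted p = 3.26e-06). The ages did not overlap in any of the 3 genes.

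Genes for the mitochondrial respiratory chain, for ribosomes and for the proteasome fell more often than they rose. The respiratory chain and ATP synthase turn the oxidation of nutrients into ATP, and their subunits are encoded largely in the nucleus. Of 63 measured genes of oxidative phosphorylation, 36 fell and 12 rose (median -0.13, and 48 and 3 without quantile normalization). Atp5k, a subunit of ATP synthase, ran from 13.27 to 13.39 at 9 months (median 13.36) and from 12.88 to 13.03 at 14.5 months (median 12.93), with no overlap and a change of -0.41 ± 0.03 (adjusted p = 1.81e-07, and -0.69 without quantile normalization). The complex I subunits Ndufb8 (-0.45 ± 0.04, adjusted p = 4.29e-07) and Ndufv3 (-0.49 ± 0.05, adjusted p = 1.05e-06) also fell without overlap. Ndufs8, another complex I subunit, chosen after its value was seen, rose by 0.43 ± 0.07 (adjusted p = 9.32e-05), but by 0.22 without quantile normalization, and the median over its probe sets was -0.27.

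Of 42 measured genes for cytosolic ribosomal proteins, 24 fell and 5 rose, with a median of -0.16. These genes are among the brightest on the array, and without quantile normalization 38 fell and 1 rose, with a median of -0.61. Rpsa, a protein of the small subunit, ran from 13.29 to 13.60 at 9 months (median 13.42) and from 12.70 to 12.88 at 14.5 months (median 12.77; change -0.63 ± 0.05, adjusted p = 9.24e-08). Rps26 changed by -0.54 ± 0.03 (adjusted p = 1.1e-08), Rps3 by -0.41 ± 0.04 (adjusted p = 6.58e-07, and -0.78 without quantile normalization) and Rpl27a by -1.70 ± 0.11 (adjusted p = 1.43e-08). All 4 were without overlap. The 5 that rose, named after their values were seen, were Rps29 (0.30), Rpl37 (0.31), Rps28 (0.20), Rps10 (0.12) and Rpl13a (0.09), and without quantile normalization all of these except Rpl37 were below 0 (-0.57 to -0.77). Each of these 4 also had another probe set that fell. Ribosomal protein genes have many processed pseudogenes, and probes may not tell them from the parent gene.

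Mitochondrial ribosomes, which translate the few proteins encoded in mitochondrial DNA, showed 29 falls and 6 rises among 73 measured genes (median -0.15, and 19 and 9 without quantile normalization). Mrpl39 fell from a median of 11.83 to 11.27 (change -0.54 ± 0.04, adjusted p = 1.5e-07) and Mrpl22 from 10.61 to 9.78 (change -0.84 ± 0.07, adjusted p = 1.85e-07). Of 38 measured genes of the proteasome, the complex that degrades tagged proteins, 15 fell and 3 rose (13 and 1 without quantile normalization). Psmb3, a subunit of its core, fell from a median of 11.70 to 10.97 (change -0.79 ± 0.06, adjusted p = 1.24e-07), and Psma3 from 12.82 to 12.37 (change -0.50 ± 0.05, adjusted p = 2.43e-06). The 3 that rose, likewise named after their values were seen, were the core subunits Psmb7 (0.28), Psmb4 (0.17) and Psma4 (0.19), and without quantile normalization none of them passed, Psmb7 being at -0.06, Psmb4 at 0.01 and Psma4 at 0.11. In glycolysis and the citric acid cycle 14 of 32 genes rose and 5 fell, but without quantile normalization 10 rose and 12 fell. Mdh1, the cytosolic malate dehydrogenase, rose from a median of 13.37 to 14.08 (change 0.74 ± 0.06, adjusted p = 2.1e-07) at its brightest probe set, but by 0.22 without quantile normalization, and 2 of its 3 other probe sets fell (-0.32 and -0.87). Dlat, a subunit of pyruvate dehydrogenase, rose by 0.44 ± 0.04 (adjusted p = 8.11e-07) and Hk1, the main hexokinase of brain, by 0.38 ± 0.04 (adjusted p = 2.31e-06, and 0.24 without quantile normalization). All 3 were without overlap.

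**Figure D3:**
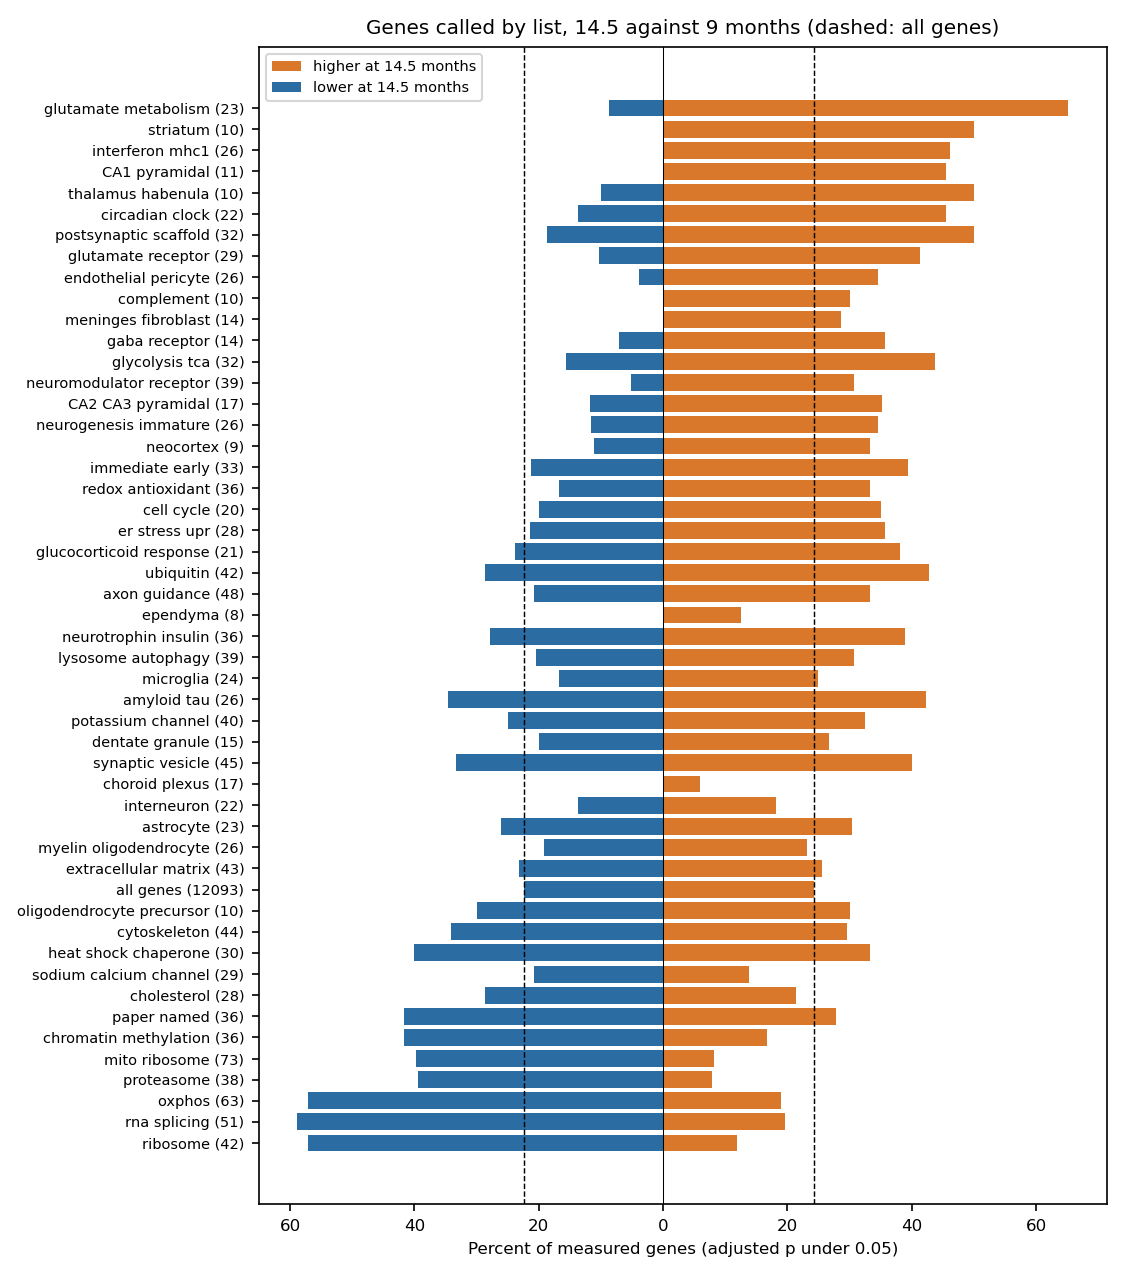
Percent of the measured genes of each list (number in brackets) that were higher (orange, to the right) or lower (blue, to the left) at 14.5 months at an adjusted p under 0.05, with dashed lines at the shares of all 12093 genes (24.3% and 22.4%). Ribosome (24 of 42 lower), RNA splicing (30 of 51 lower) and oxidative phosphorylation (36 of 63 lower) reach furthest to the left, and glutamate metabolism (15 of 23 higher) furthest to the right.

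Genes of the interferon response and of MHC class I were higher at 14.5 months or not called, and none fell. Interferons are signals released upon infection, and their target genes block viral replication and bring peptides to the cell surface on MHC class I. Of 26 measured genes, 12 rose, with a median change of 0.42 (12 rose and none fell without quantile normalization either). H2-K1, a heavy chain of MHC class I, ran from 9.81 to 10.58 at 9 months (median 10.11) and from 10.27 to 11.15 at 14.5 months (median 10.70), and the ages overlapped (change 0.58 ± 0.11, adjusted p = 4.40e-04). B2m, the light chain, ran from 11.63 to 12.23 (median 11.72) and from 11.90 to 12.37 (median 12.21), with overlap (change 0.38 ± 0.09, adjusted p = 0.00373), and a second B2m probe set did not pass (0.09). Gbp2, a GTPase that acts on pathogens inside cells, ran from 5.64 to 7.11 (median 6.30) and from 6.85 to 8.06 (median 7.81; change 1.41 ± 0.27, adjusted p = 5.09e-04). Oasl2, of the family of oligoadenylate synthetases, changed by 1.1 ± 0.24 (adjusted p = 0.00133). No gene of this list had all 6 arrays of one age beyond all 6 of the other. Marker sums of meninges and endothelium moved with these genes on some arrays. The array of Tg replicate 3 was the lowest at 14.5 months in the sums of meninges (6172) and endothelium (27120) and in Gbp2, H2-K1 and B2m, and wt replicate 2 was the highest at 9 months in the sum of meninges (14840) and in the same 3 genes. The part of these cells in the rises was not tested. Most members are dim, the mean log2 signal of the list being 8.04 against 9.41 over all genes. Oasl2 lay below the array median of 6.84 on all 6 arrays at 9 months (5.64 to 6.69), and Gbp2 on most. Both passed the level filter through the 14.5 month arrays. Genes this dim at 9 months could hardly be called as falls.

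Interferon acts on these genes largely through a promoter element whose core, GAAA, any 2 bases and GAAA again, is bound by a complex of STAT and IRF proteins. The element was searched on both strands in the promoters that RefSeq gives for the mouse genome (GRCm38.p6, from 250 bases before to 50 after each gene start). It was found in 1079 of 27025 genes (3.99%) and in 1131 of 32851 promoters (3.44%). Among the 12 genes that rose, 11 have a promoter in the table and 6 of these (54.5%) hold the element, and among those not called 6 of 12 (50%) hold it. The difference between these shares was not tested. The 6 windows below are shown because they carry the element in the genes that rose. Each is written along the strand that reads as the motif, with the letters of a single match in capitals. In Oas1a and Bst2 another match overlaps the capitals and runs on into the lower case letters. Oas1a, Bst2, Gbp3 and Ifih1 are shown for their windows, and were chosen after their values were seen.
Gbp2: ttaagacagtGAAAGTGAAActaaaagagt
B2m: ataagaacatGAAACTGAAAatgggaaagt
Oas1a: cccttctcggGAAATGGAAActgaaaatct
Bst2: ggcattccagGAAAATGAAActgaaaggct
Gbp3: ctgggaaataGAAACTGAAActgtgtcctg
Ifih1: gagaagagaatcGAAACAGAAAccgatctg
These lie at chr3:142620594-142620623 (Gbp2, minus strand), chr2:122147538-122147567 (B2m, plus strand), chr5:120907526-120907555 (Oas1a, minus strand), chr8:71537583-71537612 (Bst2, minus strand), chr3:142559989-142560018 (Gbp3, minus strand) and chr2:62646206-62646235 (Ifih1, minus strand). In Gbp2 and Gbp3 this is the strand opposite to the gene. The age changes of these last members were 0.63 ± 0.16 for Oas1a (adjusted p = 0.00395), 1.79 ± 0.49 for Bst2 (adjusted p = 0.00795), 0.79 ± 0.23 for Gbp3 (adjusted p = 0.00989) and 0.55 ± 0.19 for Ifih1, a sensor of viral RNA (adjusted p = 0.0272). Ifih1 did not pass without quantile normalization (0.33, adjusted p = 0.121). A match is a description of the sequence, and binding was not measured.

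Of the complement system, which tags cells and debris for removal, 3 of 10 measured genes rose and none fell, beside 24.3% and 22.4% of all genes. The 3 that rose were C1qc (0.34 ± 0.08, adjusted p = 0.00346) and C1qa (0.23 ± 0.06, adjusted p = 0.0073), which form part of the first component, and C2 (1.66 ± 0.65, adjusted p = 0.0474). The ages overlapped in each of them, and C2 did not pass without quantile normalization (adjusted p = 0.0698).

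Genes of glutamate handling rose more often than genes at large. Glutamate is packed into vesicles by Slc17a7 (VGLUT1), taken up again mainly by the astrocyte carrier Slc1a2 (GLT-1), and turned into GABA by Gad1. Of 23 measured genes of glutamate metabolism and transport, 15 rose and 2 fell, with a median of 0.25 (11 and 5, and 0.19, without quantile normalization). Slc17a7 ran from 12.49 to 12.72 at 9 months (median 12.57) and from 13.12 to 13.37 at 14.5 months (median 13.21), without overlap (change 0.64 ± 0.05, adjusted p = 1.34e-07). Gad1 rose from a median of 13.14 to 13.73 (change 0.60 ± 0.07, adjusted p = 3.48e-06) and Slc25a22, a mitochondrial glutamate carrier, from 11.28 to 11.69 (change 0.42 ± 0.05, adjusted p = 4.03e-06), both without overlap. Without quantile normalization the changes were 0.40 for Slc17a7 and 0.19 for Gad1, and the other probe set of Gad1 did not pass (0.15). For Slc1a2, the change was 0.31 ± 0.03 (adjusted p = 1.85e-06), but -0.66 without quantile normalization, so its direction depended on the scaling, and 2 of its 4 other probe sets fell. The 2 that fell, named after their values were seen, were Got2, the mitochondrial aspartate aminotransferase (-0.30 ± 0.04, adjusted p = 6.13e-06), whose other probe set rose (0.22), and Slc1a1, the neuronal glutamate carrier (-0.28 ± 0.04, adjusted p = 6.2e-05), whose median over its probe sets was 0.45. Glud1 itself ran from 12.16 to 12.46 at 9 months (median 12.39) and from 12.38 to 12.61 at 14.5 months (median 12.51), with overlap (change 0.16 ± 0.06, adjusted p = 0.0250), and without quantile normalization it did not pass (0.05, limma adjusted p = 0.432). A second Glud1 probe set went the other way (-0.17 ± 0.04, adjusted p = 0.00376). The transgene holds no sequence that either one probes (the 3' untranslated part), so they read the mouse's own gene and are no check of the genotype labels.

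Of 29 measured glutamate receptor genes and auxiliary subunits, 12 rose and 3 fell (median 0.18, and 10 and 4 without quantile normalization). Besides Prrt1, the metabotropic receptor Grm5 rose from a median of 12.02 to 12.47 without overlap (change 0.43 ± 0.04, adjusted p = 5.21e-07) while its other probe set fell (-0.43), and the NMDA receptor subunit Grin2b from 10.08 to 10.73 without overlap (change 0.58 ± 0.10, adjusted p = 1.53e-04). Those that fell were the AMPA receptor subunits Gria4 (-0.43 ± 0.07, adjusted p = 1.12e-04) and Gria2 (-0.12 ± 0.03, adjusted p = 0.00766) and the kainate receptor subunit Grik4 (-0.51 ± 0.13, adjusted p = 0.00357), the last pair named after their values were seen. For Gria4 the median over its probe sets was 0.19, opposite to its brightest. Of the 2 other probe sets of Gria2, 1 rose (0.21) and 1 fell (-1.47), the latter without overlap.

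In the postsynaptic list, which holds scaffold proteins, adhesion proteins and kinases, 16 of 32 rose and 6 fell. Dlg2, a scaffold of the PSD-95 family, rose from a median of 11.41 to 12.04 (change 0.61 ± 0.06, adjusted p = 7.9e-07), while Nrxn3, a presynaptic adhesion protein in the same list, fell from 12.04 to 11.60 (change -0.46 ± 0.04, adjusted p = 6.38e-07) and Homer2, which links receptors to calcium stores, from 11.75 to 11.02 (change -0.75 ± 0.08, adjusted p = 2.65e-06). None of the 3 overlapped. Among genes of synaptic vesicles the calls were split, with 18 rises and 15 falls among 45, and without quantile normalization 16 and 20. Vamp2, which drives fusion of vesicles with the membrane, ran from 12.64 to 13.06 at 9 months (median 12.92) and from 13.78 to 13.87 at 14.5 months (median 13.86; change 0.94 ± 0.06, adjusted p = 9.45e-09). Syt11 (0.59 ± 0.04, adjusted p = 8.25e-09) and the vesicle membrane protein Scamp1 (0.67 ± 0.04, adjusted p = 9.59e-09) rose as well, all 3 without overlap. Without quantile normalization the rise was 0.53 for Vamp2 and 0.36 for Syt11. Marker sums of striatum and neocortex, given with the other tissues, also did not overlap between the ages, and their part in these synaptic changes was not tested.

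Of 14 genes for GABA receptors and related transporters, 5 rose and 1 fell. Gabra3, a subunit of the GABA-A receptor, rose from a median of 9.25 to 10.32 (change 1.08 ± 0.13, adjusted p = 6.47e-06), and Slc6a11, the astrocyte GABA carrier, from 9.48 to 10.25 (change 0.84 ± 0.11, adjusted p = 1.95e-05). Gabbr1, a subunit of the GABA-B receptor, was at 0.25 ± 0.03 (adjusted p = 9.18e-06) but at -0.08 without quantile normalization. The 1 that fell, named after its value was seen, was Slc12a5, the carrier that keeps neuronal chloride low (-0.23 ± 0.04, adjusted p = 2.49e-04, and -0.63 without quantile normalization). Of 39 genes for neuromodulators and their receptors 12 rose and 2 fell, with a median of 0.28. Cnr1, the cannabinoid receptor of presynaptic terminals, rose by 0.66 ± 0.06 (adjusted p = 4.05e-07) and Crh, the stress peptide corticotropin releasing hormone, by 1.36 ± 0.23 (adjusted p = 1.48e-04). Among 40 potassium channel genes 13 rose and 10 fell, with Kcnj4 rising by 0.84 ± 0.10 (adjusted p = 7.17e-06) and Kcna4 changing by -1.02 ± 0.09 (adjusted p = 3.5e-07). Of 29 sodium and calcium channel genes 4 rose and 6 fell, among them Cacnb4 (0.81 ± 0.07, adjusted p = 3.22e-07, with another probe set at -0.40) and Scn1a (-0.63 ± 0.08, adjusted p = 7.56e-06). Over all genes the shares were 24.3% and 22.4%.

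Clock genes moved in both directions. In the circadian clock the activators BMAL1 (Arntl) and its partners CLOCK or NPAS2 switch on Per, Cry and Nr1d genes and Dbp, whose products then repress or modulate the loop. Of 22 measured clock genes 10 rose and 3 fell. Arntl ran from 9.29 to 9.69 at 9 months (median 9.52) and from 8.61 to 8.92 at 14.5 months (median 8.78), without overlap (change -0.73 ± 0.09, adjusted p = 7.6e-06). Npas2 changed by 0.86 ± 0.16 (adjusted p = 3.72e-04), with overlap, and Nr1d2, a repressor of Arntl, by 0.36 ± 0.07 (adjusted p = 3.99e-04), without overlap. Its relative Nr1d1 (0.82 ± 0.18, adjusted p = 0.00183), Dbp (0.33 ± 0.08, adjusted p = 0.00194) and Per2 (0.48 ± 0.15, adjusted p = 0.0183) rose too and were chosen after their values were seen. Csnk1d, a kinase that marks PER proteins for turnover, fell by 0.69 on the log2 scale (adjusted p = 1.8e-08), and Usp2, a deubiquitinase of the clock, by 0.22 (adjusted p = 0.0112). Of the 4 other probe sets of Csnk1d, 1 rose (0.51), 1 fell (-0.37) and 2 did not pass. Usp2 was named after its value was seen, its other probe set rose (0.36), and it did not pass without quantile normalization, while 1 of the 2 other probe sets of Per2 fell (-0.64). The hour at which the tissue was taken is not given in the labels.

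Of 33 immediate early and activity-regulated genes 13 rose and 7 fell. There were 4 rises and 9 falls in Tg and 11 and 2 in wt. Over all genes 16.9% rose and 15.3% fell in Tg, and 13.6% and 16.4% in wt. The difference between the genotypes in this list was not tested. Npas4, a transcription factor switched on by neuronal activity, ran from 7.21 to 8.72 at 9 months (median 8.37) and from 6.08 to 6.99 at 14.5 months (median 6.90; change -1.47 ± 0.21, adjusted p = 3.92e-05). Fos ran from 8.88 to 11.05 (median 10.41) and from 8.66 to 9.85 (median 8.95), with overlap (change -1.22 ± 0.35, adjusted p = 0.0145). In Tg Fos ran from 10.50 to 11.05 and from 8.66 to 9.14, without overlap. In wt it ran from 8.88 to 10.31 and from 8.69 to 9.85, with overlap. Btg2, a growth arrest gene, changed by -1.03 ± 0.11 (adjusted p = 1.55e-06), but its other probe set did not pass (-0.04). Nptx2, a secreted pentraxin that clusters AMPA receptors, went the other way, from a median of 7.79 to 8.89 (change 1.03 ± 0.13, adjusted p = 1.09e-05). Of 21 genes of the glucocorticoid response 8 rose and 5 fell. Ddit4, an inhibitor of the growth kinase mTOR, rose from a median of 9.68 to 11.11 (change 1.31 ± 0.10, adjusted p = 5.08e-08), Tsc22d3 from 10.14 to 11.06 (change 0.84 ± 0.08, adjusted p = 8.13e-07) and Fkbp5, which tempers the glucocorticoid receptor, from 9.91 to 10.39 (change 0.48 ± 0.07, adjusted p = 2.68e-05). All 3 were without overlap.

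Lists of glial cells showed no common direction. Of 24 microglial genes 6 rose and 4 fell, of 23 astrocyte genes 7 and 6 (5 and 9 without quantile normalization), and of 26 myelin and oligodendrocyte genes 6 and 5. Csf1r, the receptor on which microglia depend, fell from a median of 12.59 to 11.99 without overlap (change -0.59 ± 0.04, adjusted p = 1.85e-08), but 1 of its 2 other probe sets rose (0.42). P2ry12, a receptor of resting microglia, rose by 0.24 ± 0.06 (adjusted p = 0.00248) and Laptm5 by 0.44 ± 0.08 (adjusted p = 4.52e-04). Of the transcription factors of the oligodendrocyte lineage, Olig1 changed by -0.45 ± 0.06 (adjusted p = 3.97e-05) and Olig2 by 0.46 ± 0.09 (adjusted p = 6.81e-04), both without overlap. Cldn11, a tight junction protein of myelin, rose by 0.68 ± 0.08 (adjusted p = 8.97e-06). Of 26 genes of endothelial cells and pericytes 9 rose and 1, the carrier Slco1a4, fell (-0.30 ± 0.09, adjusted p = 0.00843, named after its value was seen). Ocln (0.69 ± 0.13, adjusted p = 5.05e-04), of the tight junctions of the blood-brain barrier, and Pecam1, an adhesion molecule of endothelium (0.75 ± 0.17, adjusted p = 0.00164) were among those that rose. Over all genes 24.3% rose and 22.4% fell. By genotype 8 genes of the endothelial list rose in Tg and 1 in wt, beside 16.9% and 13.6% of all genes. The difference between Tg and wt in the endothelial list was not tested.

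Counts in the marker lists of the hippocampal fields were small. In CA1 5 of 11 genes rose and none fell, among them Pou3f1 (0.54 ± 0.12, adjusted p = 0.00139), in CA2 and CA3 6 of 17 rose and 2 fell, and in the dentate gyrus 4 of 15 rose and 3 fell, near the shares of all genes. The dentate counts were 1 and 3 in Tg and 5 and 1 in wt, beside 16.9% and 15.3% of all genes in Tg and 13.6% and 16.4% in wt. Amigo2, an adhesion protein of CA2, ran from 7.58 to 8.07 at 9 months (median 7.85) and from 8.73 to 9.16 at 14.5 months (median 8.94; change 1.1 ± 0.13, adjusted p = 4.27e-06), and Necab2 rose by 0.49 ± 0.06 (adjusted p = 4.15e-06). Of 26 genes of neurogenesis and immature neurons 9 rose and 3 fell. Dcx, which marks newborn neurons, fell from a median of 9.34 to 8.53 without overlap (change -0.90 ± 0.11, adjusted p = 1.04e-05), and its second probe set by 0.62 on the log2 scale. Dpysl5, of growing axons, rose from 7.09 to 8.40 (change 1.26 ± 0.15, adjusted p = 5.63e-06).

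Markers of tissue next to the hippocampus varied between mice and moved with age for some regions. The summed linear signal of 17 choroid plexus genes ran from 5109 to 60610 at 9 months and from 34090 to 56810 at 14.5 months, so a single hippocampus (Tg at 9 months, replicate 3) held far less of it than the others, and of the 17 genes only Tmem72 rose (1.89 ± 0.73, adjusted p = 0.0413) and none fell. For 14 genes of meningeal fibroblasts the sum ran from 5955 to 14840 and from 6172 to 19350, with 4 rises, Col1a1 (1.98 ± 0.70, adjusted p = 0.0290) among them, and no fall. For 10 genes of the striatum the sums did not overlap (5742 to 6327 against 7115 to 7969), and 5 rose, among them Pde10a (0.49 ± 0.10, adjusted p = 0.00108, but a median over its probe sets of -0.21), Drd2 (0.94 ± 0.34, adjusted p = 0.0291) and Drd1 (0.90 ± 0.35, adjusted p = 0.0454, named after its value was seen). For 9 genes of the neocortex they did not overlap either (5370 to 6574 against 7107 to 7918), with Tbr1 (1.04 ± 0.13, adjusted p = 1.33e-05) and Tle4 (0.71 ± 0.07, adjusted p = 1.45e-06) rising and Cux2 falling by 0.62 on the log2 scale (adjusted p = 9.62e-04). For 10 genes of thalamus and habenula the sum ran from 3380 to 6060 and from 4822 to 8757, and 5 rose, with Tcf7l2 at 1.24 ± 0.19 (adjusted p = 7.89e-05) and Rora at 0.74 ± 0.14 (adjusted p = 4.16e-04), although the median over probe sets of Rora was -0.21. Tcf7l2 lay below the array median of 6.84 on all 6 arrays at 9 months (5.84 to 6.68). At 9 months 3 of the 17 choroid plexus genes, 3 of the 14 meningeal, 4 of the 10 thalamic, 2 of the 10 striatal and 1 of the 9 neocortical genes had a mean below the array median of 6.84, and at 14.5 months 1, 0, 1, 1 and 0. Without quantile normalization Tmem72, Col1a1, Drd2 and Drd1 did not pass (limma adjusted p = 0.0952, 0.0574, 0.134 and 0.0533). Of the striatal list 5 genes rose in Tg and 1 in wt, beside 16.9% and 13.6% of all genes, and the difference was not tested. In Tg Drd1 ran from 5.83 to 6.51 at 9 months and from 7.71 to 8.20 at 14.5 months. In wt it ran from 7.405 to 9.18 and from 7.98 to 8.63. Drd2 ran from 4.53 to 5.76 and from 6.575 to 7.54 in Tg. In wt it ran from 6.57 to 6.83 and from 6.74 to 6.96. Tg values of both receptors at 9 months lay below the array median. The part of these tissues in the other age changes was not tested.

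The age change mostly had the same sign in both genotypes. The genotypes share no array, but both changes came from the same model, with a variance estimate pooled over Tg and wt. Their arrays were also quantile normalized together. The calls in Tg and in wt are therefore not from separate tests. In Tg 4481 probe sets (18%) rose and 4507 (18.2%) fell, 36.2% in all. In wt 4100 (16.5%) rose and 4452 (17.9%) fell, 34.4% in all. Of the 4481 that rose in Tg, 95.7% were also higher at 14.5 months in wt and 58.2% passed there in the same direction, and of the 4507 that fell 97.1% were lower and 74.2% passed. In wt 7 of the former and 1 of the latter passed in the opposite direction. The arrays of both genotypes at an age share the difference in control signals described above, so this does not separate age from array preparation. Malat1 changed by -3.42 in Tg and -3.10 in wt.

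No probe set passed the test of a difference in age change between Tg and wt (limma, adjusted p under 0.05), with 2213 at an unadjusted p under 0.05. The 5 genes with the smallest p were Hsd3b3, Sox3, Fam43a, Dgkh and Resp18, with adjusted p from 0.121 to 0.243. Sox3, a transcription factor of neural progenitors, ran from 2.07 to 7.16 at 9 months and from 6.97 to 7.37 at 14.5 months, and Fam43a from 6.47 to 8.02 and from 8.27 to 8.53. At 9 months the genotypes did not overlap in either gene, Sox3 lying between 2.07 and 3.53 in Tg and between 6.33 and 7.16 in wt, and Fam43a between 6.47 and 6.61 in Tg and between 7.58 and 8.02 in wt. Both were picked for a small interaction p, so this gap follows in part from the choice and is no separate support. The share of all genes with such a gap was not counted. The Tg values of both genes at 9 months lay below the array median of 6.84.

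The comparison of 20 with 4.5 months uses other arrays and shows how the same genes stood at the ends of adult life. There 5452 probe sets (22%) rose and 4790 (19.3%) fell, 41.3% in all, and over genes 23.8% rose and 21.1% fell. Of the 6620 probe sets that rose from 9 to 14.5 months, 21.5% rose from 4.5 to 20 months and 28.9% fell, and of the 6009 that fell, 12.8% fell and 24.6% rose. Several lists leaned one way in one comparison and the other way in the other. In oxidative phosphorylation 39 of 63 rose and 6 fell from 4.5 to 20 months (12 and 36 from 9 to 14.5 months), in cytosolic ribosomal proteins 21 of 42 rose and 3 fell (5 and 24), and in mitochondrial ribosomal proteins 43 of 73 rose and 5 fell (6 and 29). Splicing factors had 22 rises and 8 falls of 51 (10 and 30), glutamate receptors 1 and 16 of 29 (12 and 3) and postsynaptic genes 3 and 17 of 32 (16 and 6). The interferon and MHC class I list had more rises than falls in both, with 7 and 1 of 26 (12 and 0).

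Single genes show the shape over the 4 adult ages. Malat1 group means in Tg were 12.03 at 4.5 months, 14.64 at 9, 11.22 at 14.5 and 13.49 at 20 months, so it stood highest at 9 months and lowest at 14.5. Luc7l2 likewise had its highest mean at 9 months (12.51 in Tg and 12.23 in wt) and its lowest at 14.5 (10.60 and 10.44), and from 4.5 to 20 months it did not pass the test (-0.07 ± 0.17, adjusted p = 0.774). Prrt1 in wt stood at 12.92, 11.08, 12.46 and 10.55 at the 4 ages, and Slc17a7 at 13.40, 12.59, 13.26 and 11.46, so both were high at 4.5 and 14.5 months and low at 9 and 20. The control transcripts also differed at these ages, with 18S rRNA between 4.97 and 6.43 at 4.5 months and between 8.12 and 8.74 at 20 months on the log2 scale. That is, 18S rRNA was high at 9 and 20 months and low at 4.5 and 14.5, and its part in the pattern of these genes was not tested across the 4 ages.

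**Figure D4:**
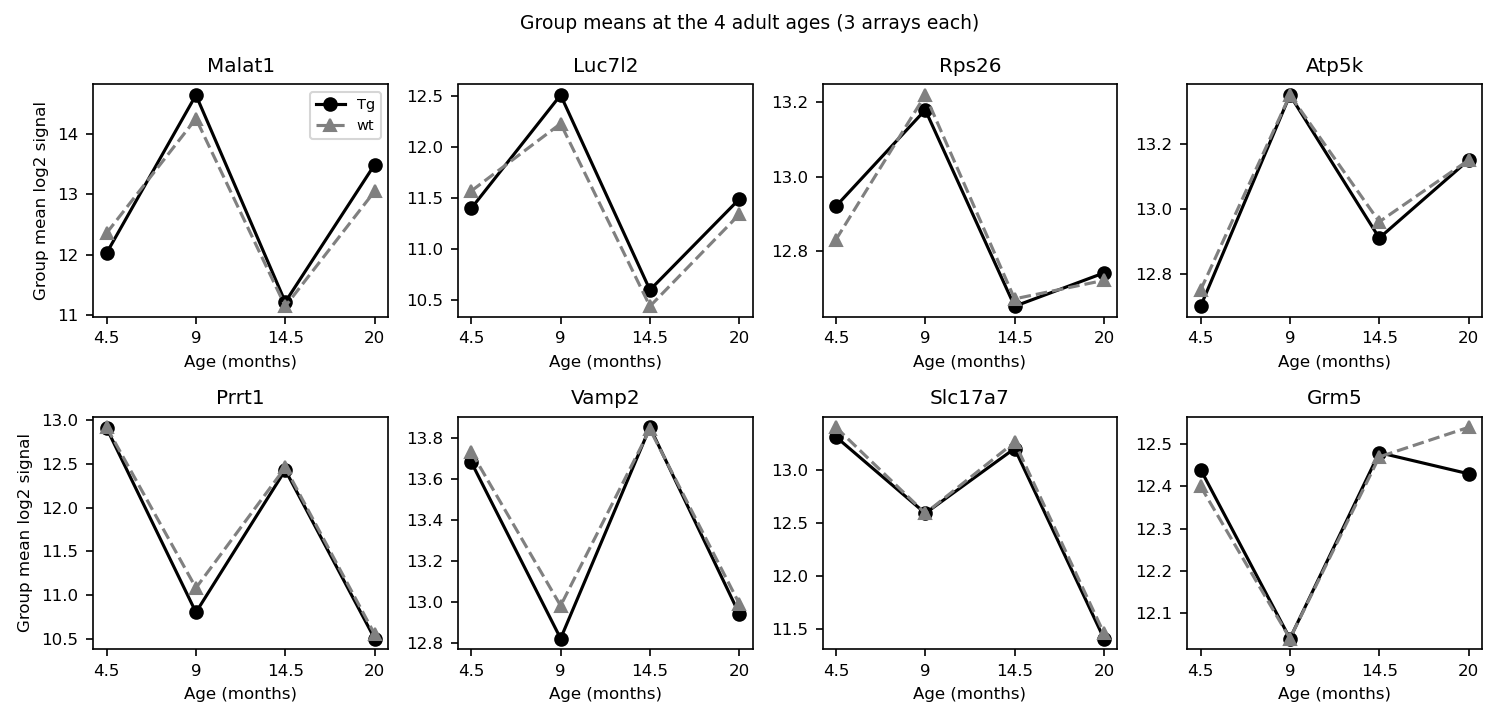
Group mean log2 signal (y axis, 3 arrays each) of 8 genes at the 4 adult ages, with solid lines for Tg and dashed lines for wt. Malat1, Luc7l2, Rps26 and Atp5k stand highest at 9 months, while Prrt1, Vamp2, Slc17a7 and Grm5 rise between 9 and 14.5 months, as from 11.08 to 12.46 for Prrt1 in wt.

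The scaling moved the median change most for dim probe sets and the shares of calls most for the brightest. Split into deciles by mean signal, the median change was 0.27 in the dimmest decile after quantile normalization and -0.06 as deposited. It was 0.19 against -0.03 in the next decile, and 0.00 against -0.14 in the brightest. In the brightest decile 33.8% of probe sets rose and 34.6% fell after quantile normalization, against 20.5% and 50.7% as deposited. Of all calls, 5619 rises and 5220 falls were shared by both scalings, 124 rises became falls without quantile normalization, and none went from fall to rise.

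**Figure D5:**
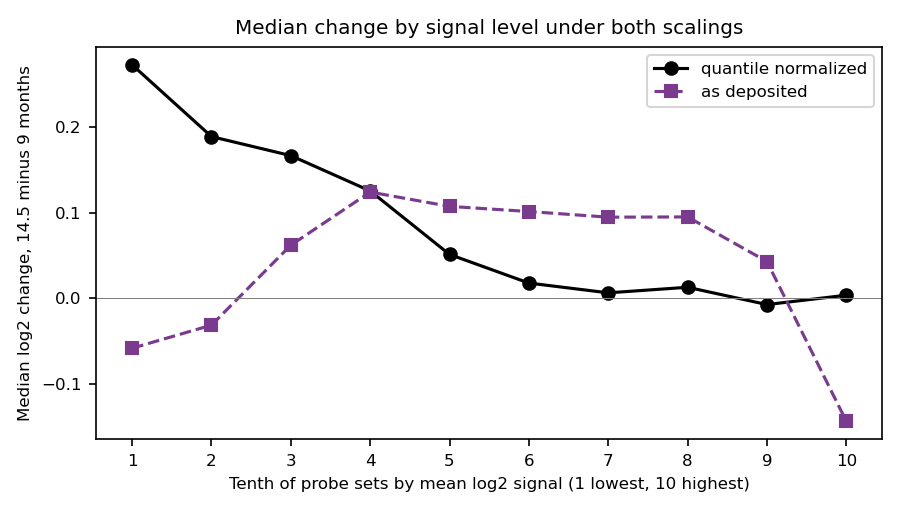
Median log2 change from 9 to 14.5 months (y axis) for deciles of the 24828 probe sets ordered by mean log2 signal (x axis), with circles for quantile normalized and squares for deposited values. The curves part at both ends, 0.27 against -0.06 in the lowest decile and 0.00 against -0.14 in the highest.

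Of 36 measured genes that the study names in its text, 10 rose and 15 fell, with a median of -0.15 (6 and 15 without quantile normalization). The study chose them on these samples, so their direction is not independent evidence. Zeb2, a transcription factor, fell from a median of 12.29 to 11.27 without overlap (change -1.03 ± 0.12, adjusted p = 9.69e-06), and Tomm20, a receptor for proteins entering mitochondria, rose from 12.93 to 13.39 without overlap (change 0.45 ± 0.03, adjusted p = 3.96e-08), but by 0.12 without quantile normalization. Of the 3 other probe sets of Zeb2, 2 rose (0.77 and 0.32).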

How the data were processed

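Hippocampal RNA of 31 mice was labelled and hybridized by the authors, 1 mouse for each array, and the 12 arrays at 9 and 14.5 months are reported. The deposited table holds linear signal intensities that the authors made with MAS5, a method that summarises the probes of a probe set and scales each array, with settings not given in the sources used here. It holds no detection calls, so a filter on absent calls was replaced by one on level. The study describes another normalization (RMA) for its own analysis, which was not used here. Each replicate is 1 mouse. Here the log2 intensities of the 31 arrays were quantile normalized together. Of 45037 mouse probe sets, 34945 are listed for 1 gene, 932 for several and 9160 for none.

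Limma 3.58.1 in R 4.3.3 fitted age and genotype (trend, robust), and a model of group means gave the change in each genotype and the interaction. All 24828 tested probe sets entered the Benjamini-Hochberg adjustment. Control measures were compared by exact permutation. The number of arrays limits the precision.

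The members, gene lists and naming rule were chosen with earlier results of these data known. The rule takes the 15 largest rises and falls whose 6 arrays at one age lie beyond the 6 at the other (mean signal above the array median), the 5 smallest p of the interaction, up to 4 members of each list by p, Glud1 and the genes the study names. Any other gene was chosen after its values were seen. The model was tested on simulated data.

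Alternatives were no quantile normalization, quantile normalization of the 12 arrays alone, an offset of 50, no filter, a filter at the 60th percentile, moderation without trend, group means over 31 arrays, a replicate block, the Gapdh ratio or hybridization controls as covariates, a stricter threshold, a gene's median over its probe sets and each array left out. Array weights and covariates for 18S rRNA and poly-A controls were chosen after seeing the data.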

Additional observations from a re-analysis of the deposited data

Results flagged for a closer look

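In groups of 6 arrays, 33 of 348 (9.48%) had a highest or lowest array whose gap to its nearest neighbour was large for the range of the group, where chance gives about 1 in 20. All values are log2 signals except the marker sums, which are linear, and the nearest array follows in brackets.

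At 9 months the spiked-in control lys was 5.02 (6.55) in Tg replicate 3. In Tg replicate 2 Prrt1 was 10.50 (10.95), Nfkbil1 4.49 (6.30), Ddit4 10.33 (9.76) and Norad 14.19 (14.27). In Tg replicate 1 Tsc22d3 was 10.57 (10.20) and Rps26 13.12 (13.20). In wt replicate 1 Pecam1 was 8.18 (7.36), Npas4 7.21 (8.20), Crh 5.21 (6.06) and Hnrnpl 8.66 (9.15), and in wt replicate 2 Ttc14 was 11.49 (12.02).

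At 14.5 months Tg replicate 3 was low in the marker sums of meninges at 6172 (15270), endothelium at 27120 (33290) and microglia at 19600 (21170), and in Gbp2 at 6.85 (7.73), Ocln at 8.70 (9.12), Col1a1 at 5.37 (7.17) and Slco1a4 at 9.63 (10.10). In wt replicate 3 Ap2b1 was 12.07 (12.34), 2310067E19Rik 7.62 (7.24), Kcnq1ot1 7.77 (7.45), Sox3 6.97 (7.25), Npas4 6.08 (6.69) and Slc6a11 9.98 (10.20). In Tg replicate 1 Tcf7l2 was 7.64 (7.37), Scamp1 13.03 (12.88) and Cacnb4 11.45 (11.60). In Tg replicate 2 Mrpl22 was 9.47 (9.72) and Slc1a1 11.47 (11.59). In wt replicate 2 Dpysl5 was 8.04 (8.35) and Atp5k 13.03 (12.93), and in wt replicate 1 Meg3 was 11.70 (12.31).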

How the results depend on the processing

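The rise of 6620 and fall of 6009 probe sets stayed within 1.5 times these counts under every alternative except 3 covariates and the stricter threshold. With the hybridization controls as covariate, the counts were 0 and 0 (1205 at an unadjusted p under 0.05), in Tg 0 and 0, and in wt 0 and 0. With the 18S rRNA covariate they were 279 and 347, in Tg 347 and 390, and in wt 49 and 26. With the poly-A covariate they were 2 and 4, in Tg 0 and 0, and in wt 2 and 3. None of these covariates overlaps between the ages, so by construction they take up the age difference. Under the stricter threshold (1.3-fold or more, adjusted p up to 0.01) the counts were 3330 and 3342, in Tg 2237 and 2582, and in wt 1974 and 2411. Lists with more falls than rises numbered 11, 17 without quantile normalization, and 0, 7 and 0 with the hybridization, 18S rRNA and poly-A covariates. The interaction gave 6 calls with moderation without trend and 4 with group means over 31 arrays, and the cause was not tested.

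Leaving out each array gave 5777 to 6663 rises and 5543 to 5878 falls, in Tg 3132 to 5240 and 3530 to 4847, in wt 2813 to 4413 and 3366 to 4607, 10 to 13 lists, and 0 to 6 interaction calls (6 without Tg replicate 1 at 9 months, 5 without wt replicate 1, 4 without Tg replicate 2, 3 without Tg replicate 3 and 1 without wt replicate 3). With the replicate number as a block, the counts were 6567 and 5943, in Tg 4388 and 4442, in wt 4092 and 4372, and 0 for the interaction. The deviations of same-numbered arrays correlated at -0.0999 to 0.202 over 12 pairs, 2 of them over 0.1. With so few arrays in a group, these correlations cannot show whether the numbers pair the samples.

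Log2 changes of the opposite sign without quantile normalization were Hsd3b3 -0.17, Slc1a2 -0.66, Gabbr1 -0.0836, Norad -0.61, Rps29 -0.77, Rps28 -0.57, Rps10 -0.59, Rpl13a -0.68, Psmb7 -0.0601. Log2 changes of the opposite sign with an offset of 50 were Hsd3b3 -0.0414. Log2 changes of the opposite sign with the hybridization controls as covariate were 6330415B21Rik 1.12, Mir1931 0.11, Gm31445 0.36, 2310067E19Rik 0.00771, 1500004A13Rik 0.48, Oasl2 -0.49, Pecam1 -0.82, Tmem72 -2.92, Tcf7l2 -0.83, Rora -0.37, Pde10a -0.57, Arntl 0.0103, Slc6a11 -0.97, Glud1 -0.0614, Kcnq5 0.23, Rps10 -0.64, Rpl13a -0.11, Psmb7 -0.44, Psmb4 -0.10, Gria2 0.12, Usp2 0.17, Dbp -0.59. Log2 changes of the opposite sign with the 18S rRNA covariate were Tmem143 -1.53, Slc26a2 -0.28, Tmem72 -2.11, Tenm2 0.12, Rps10 -0.20. Log2 changes of the opposite sign with the poly-A covariate were Tmem143 -2.67, Notch4 -0.24, Foxj1 -3.09, Zfp995 -0.33, Zbed6 0.27, Hsd3b3 -0.22, Dgkh 0.72, Cldn11 -0.34, P2ry12 -0.21, C1qa -0.44, Pecam1 -0.62, Tmem72 -1.90, Tcf7l2 -0.23, Rora -0.87, Drd2 -0.0545, Tbr1 -1.03, Tsc22d3 -0.0939, Dlg2 -0.12, Slc6a11 -0.63, Fos 0.62, Kcnq5 0.49, Rpl37 -1.12, Rpl13a -0.27, Slc12a5 0.28, Usp2 0.12, Per2 -1.47, Slco1a4 0.39, Drd1 -0.41. Log2 changes of the opposite sign as the median over the probe sets of the gene were 1500004A13Rik 0.31, Rora -0.21, Pde10a -0.21, Gria4 0.19, Glud1 -0.00611, Ndufs8 -0.27, Rps28 -0.24, Rps10 -0.11, Slc1a1 0.45, Usp2 0.0719. Leaving out each array moved Hsd3b3 between -0.14 and 0.38, below 0 without each of 5 arrays.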
